A study of Mus musculus with 3 samples.

Results

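The genes described here are 7 of the 32546 annotated genes: the retinoic acid receptors Rara, Rarb and Rarg, the retinoid X receptor Rxra, the enzymes Aldh1a1 and Cyp26b1, and Gprc5c, an orphan receptor used to mark dormant haematopoietic stem cells (HSCs). They were chosen by name for their place in retinoic acid signalling and HSC dormancy. The rule uses no measured value, but the choice was made with earlier results of these data known. The cells were LT-HSCs of wild-type C57BL/6 females aged 24 months, taken from bone marrow, enriched for c-Kit and sorted by FACS. They were profiled by DOGMA-seq, which reads open chromatin (ATAC), RNA and antibody tags of surface proteins from the same cell. The 3 libraries share their cell barcodes, and how many mice gave the cells is not stated. With 1 library per assay there was no replicate and no test between groups, and the RNA matrix was not analysed here. The values are ATAC fragments in 3629 cells with 10 or more summed antibody tags, and every interval is a 95% interval that covers counting error only.

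Retinoic acid is made from vitamin A in steps that end with aldehyde dehydrogenases such as Aldh1a1, and it is broken down by Cyp26 enzymes such as Cyp26b1. Inside the nucleus it binds RAR receptors, which pair with RXR receptors on DNA at direct repeats of a short half-site and recruit corepressors or coactivators. Retinoic acid signalling is known to help keep HSCs dormant, that is, in long and deep quiescence. Rarb is a textbook example of a gene that is itself switched on by retinoic acid through a direct repeat in its promoter.

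The kept cells carried 38554133 fragments, with a median of 10300 fragments per cell and a range of 3859 to 45151. Of 4369 barcodes called as cells, 3724 also had antibody counts, and 95 of these fell under the minimum. The kept cells had 3001 or more fragments in peak regions, and the paper filtered cells at more than 3000. Whether that filter removed the called cells without antibody counts is not stated. The label was checked with 10 HSC marker genes, of which 10 lay above the median gene, and their median promoter count was 1046.5 fragments. Megakaryocyte markers (7 genes) had a median of 346, erythroid (6) 141.5, myeloid (7) 85, B cell (5) 26, macrophage (6) 53.5, T cell (6) 71, and stromal and endothelial (6) 191.5. Single markers crossed this order. The HSC markers ran from 99 (Ly6a) and 117 (Slamf1) to 1587 (Mllt3), the megakaryocyte markers from 2 (Gp6) to 627 (Pf4) and 758 (Itga2b), the B cell markers from 2 (Ms4a1) to 383 (Ebf1) and 877 (Pax5), and the T cell markers from 2 (Cd8a) to 358 (Cd3d) and 587 (Tcf7). Open promoters of other lineages were thus present in these cells, and their part in the members' values was not tested. Epor (602), Mertk (548), Pecam1 (529) and Csf3r (250) were highest in the erythroid, macrophage, stromal and endothelial, and myeloid lists. The median level was 1.35 FPKM (fragments per kb per 1000000) for the HSC markers and 3.92 for the megakaryocyte markers, of which 5 of 7 lay above the median gene. The other lists had 1.11 (stromal and endothelial), 0.983 (T cell), 0.972 (erythroid), 0.575 (macrophage), 0.482 (B cell) and 0.455 (myeloid). The counts above the median gene were 4 of 6 erythroid, 3 of 7 myeloid, 1 of 5 B cell, 3 of 6 T cell, 3 of 6 macrophage and 4 of 6 stromal and endothelial markers. Accessibility that comes from fewer open cells and accessibility that is lower in every cell cannot be told apart in a sum over cells.

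The sequences below carry the main observations at these genes. The first pair are the direct repeats with a spacing of 5 bases (DR5) at Rarb and Rara, in windows of 30 bases with the whole repeat in capitals. The Rarb window lies at chr14:16575507-16575536 on the minus strand and the Rara window at chr11:98960002-98960031 on the plus strand. The others are the strongest open sites of Rara (chr11:98942247-98942425, plus strand), Rarg (chr15:102246926-102247225, minus), Cyp26b1 (chr6:84583426-84583725, minus) and Gprc5c (chr11:114865926-114866225, plus). These show what the most open DNA in each gene reads like, and their capitals mark the RUNX letters TGTGGT or the ETS letters AGGAAG found on the printed strand or its complement. All were read from the GRCm38.p6 genome of RefSeq, the same build as the mm10 coordinates of the files, and are written 5′ to 3′ on the strand of the gene.
Rarb DR5: cgggaagGGTTCACCGAAAGTTCActcgca
Rara DR5: caggcgAGTTCAGCAAGAGTTCAgccgaat
Rara strongest site: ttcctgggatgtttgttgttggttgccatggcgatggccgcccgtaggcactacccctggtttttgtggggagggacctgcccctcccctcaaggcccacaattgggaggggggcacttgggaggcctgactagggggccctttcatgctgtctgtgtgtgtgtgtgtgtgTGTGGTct
Rarg strongest site: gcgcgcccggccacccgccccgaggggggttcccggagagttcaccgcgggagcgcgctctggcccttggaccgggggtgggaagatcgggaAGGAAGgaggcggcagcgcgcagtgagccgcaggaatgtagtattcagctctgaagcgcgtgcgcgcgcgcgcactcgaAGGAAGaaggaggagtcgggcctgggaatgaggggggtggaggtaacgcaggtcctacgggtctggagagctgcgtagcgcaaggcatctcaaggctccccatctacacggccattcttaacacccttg
Cyp26b1 strongest site: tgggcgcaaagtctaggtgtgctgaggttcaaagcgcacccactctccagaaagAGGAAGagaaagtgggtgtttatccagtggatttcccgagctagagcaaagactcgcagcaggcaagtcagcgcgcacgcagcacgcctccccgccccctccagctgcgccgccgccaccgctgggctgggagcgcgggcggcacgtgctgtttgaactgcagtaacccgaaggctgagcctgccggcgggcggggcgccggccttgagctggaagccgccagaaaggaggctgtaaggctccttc
Gprc5c strongest site: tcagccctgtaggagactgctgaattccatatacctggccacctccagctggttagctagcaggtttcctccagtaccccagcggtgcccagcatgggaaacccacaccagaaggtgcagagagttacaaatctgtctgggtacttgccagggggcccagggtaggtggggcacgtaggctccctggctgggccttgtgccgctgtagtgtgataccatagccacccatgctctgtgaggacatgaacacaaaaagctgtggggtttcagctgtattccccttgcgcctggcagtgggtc
The Rara window was shortened to 179 bases to leave out an exon of a predicted antisense gene. The full 300 bases of that site hold 2 RUNX and 2 ETS matches and the E-box letters CAGCTG. The shortened Rara window holds 1 RUNX match, the Rarg window 2 ETS matches and the Cyp26b1 window 1 ETS match. The Gprc5c window has no match to GATA, RUNX, ETS, AP-1 or the direct repeats. The Gprc5c and Cyp26b1 windows both hold the E-box letters CAGCTG, which are not marked. The Rarg and Cyp26b1 windows were rich in CG, with 30 and 24 CG pairs in 300 bases, whereas the Gprc5c window had 4.

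The members differed widely in accessibility. In mm10 they lie at chr11:98927818-98974942 (Rara), chr14:16430839-16819156 (Rarb), chr15:102234938-102257517 (Rarg), chr2:27676440-27762957 (Rxra), chr6:84571414-84593908 (Cyp26b1), chr19:20492715-20643465 (Aldh1a1) and chr11:114851152-114872617 (Gprc5c). Levels were counted over the gene and 2 kb upstream and given as FPKM, the unit defined above, scaled to all fragments of the kept cells. Rarg, a receptor known for a role in HSC self-renewal, was the most open at 6.02 (5.86 to 6.18; 5705 fragments), followed by Rara, the most widely expressed RAR, at 4.25 (4.16 to 4.35; 8057 fragments). Cyp26b1, which clears retinoic acid, had a level of 3.99 (3.86 to 4.12; 3767 fragments). These 3 genes stood at the 94.1, 90.2 and 89.3 percentile of all genes, coding and non-coding. Rxra, the partner receptor, had 1.57 (1.53 to 1.61; 5357 fragments), and Gprc5c had 1.28 (1.21 to 1.36; 1162 fragments). Rarb had 0.359 (0.349 to 0.369; 5400 fragments) and Aldh1a1 0.281 (0.268 to 0.295; 1655 fragments), the 2 levels under the median gene at 0.603. The intervals of neighbours in this order did not overlap, and the most open gene was 21.4 times the least open one. For 1134 olfactory receptor genes, which blood cells do not use, the median level was 0.0177, so both low members lay above such closed genes. These closed genes do not stand for the average of the genome, for which no level is given here.

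The windows of Rarb and Aldh1a1 were the longest, at 390.3 kb for Rarb and 152.8 kb for Aldh1a1, and in each gene the outermost annotated start was nearly closed. With the window of every gene started at its own most open promoter, a choice made after seeing the data, Rarb had 0.686 and Aldh1a1 0.720 FPKM, beside a median of 0.608 over all genes, and 7 of 7 members lay above it instead of 5. These remained the lowest of the 7 levels. The others had 8.52 (Rarg), 4.95 (Cyp26b1), 4.82 (Rara), 1.58 (Rxra) and 1.28 (Gprc5c) under that window. Cyp26b1 thus stood above Rara and Aldh1a1 above Rarb, the reverse of the full windows, and the intervals overlapped within each pair. Some fragments of the full windows also lay in other genes. For Rarb, 274 fragments (5.07%) lay in the neighbour Top2b and 505 (9.35%) in the antisense gene Gm48162, and for Aldh1a1, 153 (9.24%) lay in C730002L08Rik. ATAC carries no strand, so these could not be assigned to one of the genes. A fragment was seen in 83.63% of cells for Rara, 71.8% for Rarb, 71.7% for Rxra, 71.5% for Rarg, 58.6% for Cyp26b1, 33.8% for Aldh1a1 and 24.8% for Gprc5c. These shares follow window length and depth as well as accessibility, and they are not shares of cells that express the gene.

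Promoters were counted as windows of 500 bp on each side of every annotated start, with starts within 500 bp merged. Of the 21 promoters of the members, 15 had more fragments than the median of all promoters, 40, and 6 had fewer. The median over 1790 olfactory receptor promoters was 1 and their highest decile 4. Of the RARs, Rara opened most at the start at position 98937698 on chromosome 11 (transcripts Rara-204 and Rara-201), with 848 fragments (792 to 907) in 19.7% of cells. A downstream start at 98960412 (Rara-202) had 279 fragments (247 to 314), and the outermost start at 98927818 had 102 (83.2 to 124). Rara thus had its promoter signal spread over several starts, with 64.1% at the most open one.

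The promoter signal of Rarb was spread far less evenly over its annotated starts. The promoter at 16575827 on chromosome 14 (Rarb-201 and Rarb-207) had 706 fragments (655 to 760) in 16.3% of cells, and the outermost promoter at 16819156 (Rarb-203 and Rarb-204) had 3 (0.619 to 8.77). The last value was under the highest decile of olfactory receptor promoters. Rarg had 3 open promoters on chromosome 15, at 102246500 with 941 fragments (882 to 1003), at 102243589 with 915 (857 to 976) and at 102257517 with 714 (663 to 768). The first pair had overlapping intervals, and the remaining Rarg promoter at 102250346 had 76 fragments. With windows of 250 bp on each side the 3 open promoters had 524, 769 and 609, so their order depends on the window. Rxra had 666 fragments (616 to 719) at 27677201 on chromosome 2 and 406 (367 to 447) at the start just before it, while its start sites at 27709292 and 27710583 had 16 and 30.

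The enzymes also had promoter signal that differed widely among their starts. Aldh1a1, which oxidises retinal to retinoic acid, had 338 fragments (303 to 376) at 20601961 on chromosome 19 (Aldh1a1-201) and 4 (1.09 to 10.2) at its outermost start. Cyp26b1 had 568 fragments (522 to 617) at 84588638 on chromosome 6 and 383 (346 to 423) at 84588005, against 30 (20.2 to 42.8) at the outermost start at 84593908. Windows of 250 bp on each side gave 301 at 84588638 and 326 at 84588005, so their order depends on the window. Thus for both enzymes the open promoter was an internal one. Gprc5c has 7 annotated starts close together on chromosome 11, merged into a window of 2168 bp from 114851152, with 492 fragments (449 to 537) in 11.9% of cells. Its other start at 114864492 had 9 fragments (4.12 to 17.1). Of the 21 member promoters, 11 (52.4%) had 300 or more fragments, against 32.4% of all promoters. Counted by gene, 7 of 7 members had such a promoter, against 41.0% of all genes, with the limit set after the values were seen. All genes here include non-coding ones, whereas the members are protein-coding. What this adds to the contrast was not tested.

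**Figure D1:**
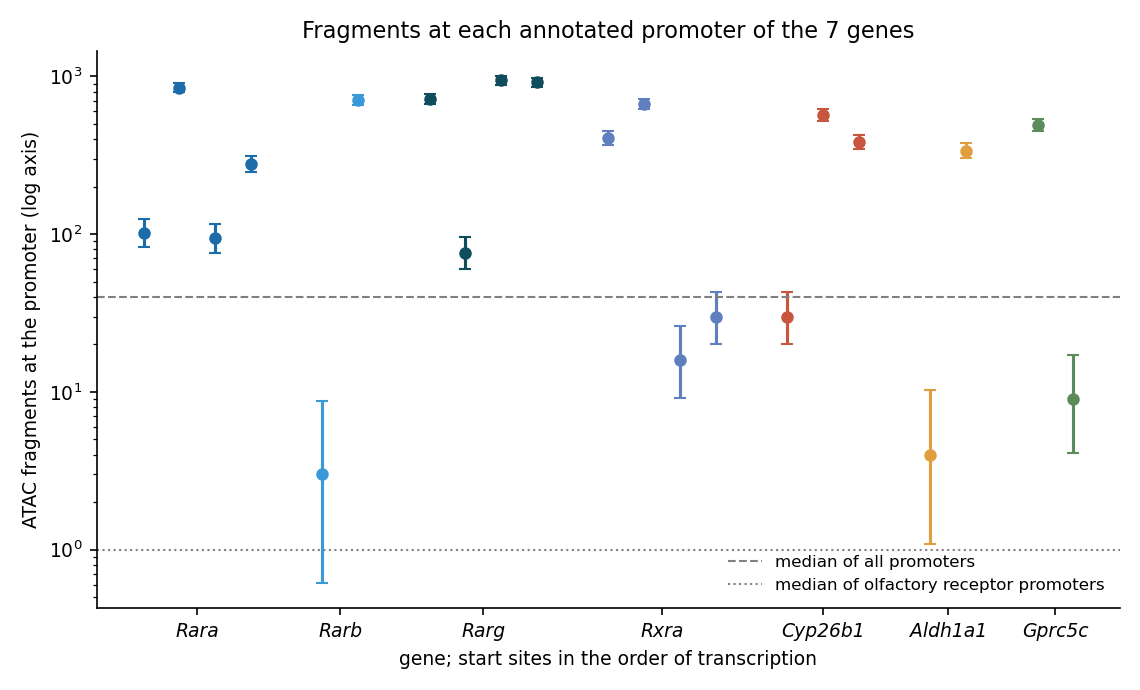
ATAC fragments at each annotated promoter of the 7 genes (log scale, fragments in 3629 cells), with 95% Poisson intervals, by gene and in the order of transcription, and lines at the medians of all promoters (40) and of olfactory receptor promoters (1). Rarb and Aldh1a1 each have 1 open promoter (706 and 338 fragments) and 1 with 3 or 4 fragments, whereas Rarg has 3 promoters between 714 and 941.

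Open sites were called from transposase insertions in windows of 250 bp with at least 8 times the genome mean of 7.07 insertions. Of 86743 sites in the genome, 115 lay in a member or within 20 kb of it: 74 in introns, 14 at the members' own promoters, 2 in exons and 25 outside the gene. Of these, 91 lay in the gene or 2 kb upstream. Rara had 34 sites, Rarb 20, Rxra 19, Rarg 17, Cyp26b1 12, Gprc5c 9 and Aldh1a1 4. Sites outside a member can lie in a neighbour. Upstream Rara sites such as 98918425 lay in the gene Cdc6, and Rarg sites such as 102225325 in Itgb7. Per 100 kb of gene and upstream window, Rara (50.9), Cyp26b1 (44.9) and Rarg (44.8) were densely covered, Rxra (18.1) and Gprc5c (17.0) less so, and Rarb (5.12) and Aldh1a1 (2.62) were near the genome's 3.19. This order put the same 3 genes on top as the fragment levels, which come from the same library.

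The strongest site of several members was not at one of their own promoters. In Rara it lay in an intron at 98942275, with 1817 insertions (1734 to 1903), 257 times the genome mean, in 31.8% of cells. The 5′ end of the predicted antisense gene Gm46294, at 98942246, lies inside this site, so its openness cannot be given to Rara alone. The most open Rara promoter reached 125 times the mean, with 887 insertions. A further intronic Rara site at 98943075 reached 87.0 times. In Rarg the strongest site was at 102247075, 575 bp upstream of the start at 102246500, with 1446 insertions (1372 to 1523) or 205 times the mean, in 25.5% of cells. The next Rarg sites were the promoter at 102243625 (147 times) and a site beyond the gene's end at 102224675 (99.99 times), inside Itgb7. In Rxra, intronic sites at 27740425 (902 insertions, 844 to 963; 128 times) and 27758625 (708; 100.1 times) exceeded the promoter at 27677125 (423; 59.8 times).

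Cyp26b1 also had its strongest site in an intron, at 84583575, with 851 insertions (795 to 910; 120.4 times the mean), against 567 at the promoter site (80.2 times) and 561 at 84590475 (79.3 times). The strongest Aldh1a1 sites were an intronic one at 20614475 (335 insertions; 47.4 times) and the promoter at 20601925 (295; 41.7 times), followed by 20559025 (138; 19.5 times). Gprc5c had 293 insertions (41.4 times) in an intron at 114866075, 182 (25.7 times) downstream of the gene at 114879875 and 160 (22.6 times) at its promoter. In Rarb the order was the other way, with the promoter at 16575525 first (686 insertions, 636 to 739; 97.0 times) and the introns at 16605675 (46.0 times) and 16479125 (33.0 times) after it. That Rarb promoter site also lies at a promoter of the antisense gene Gm48162, so its openness cannot be given to Rarb alone. The median site of the genome had 21.6 times the mean, and the top site of each member was above it.

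**Figure D2:**
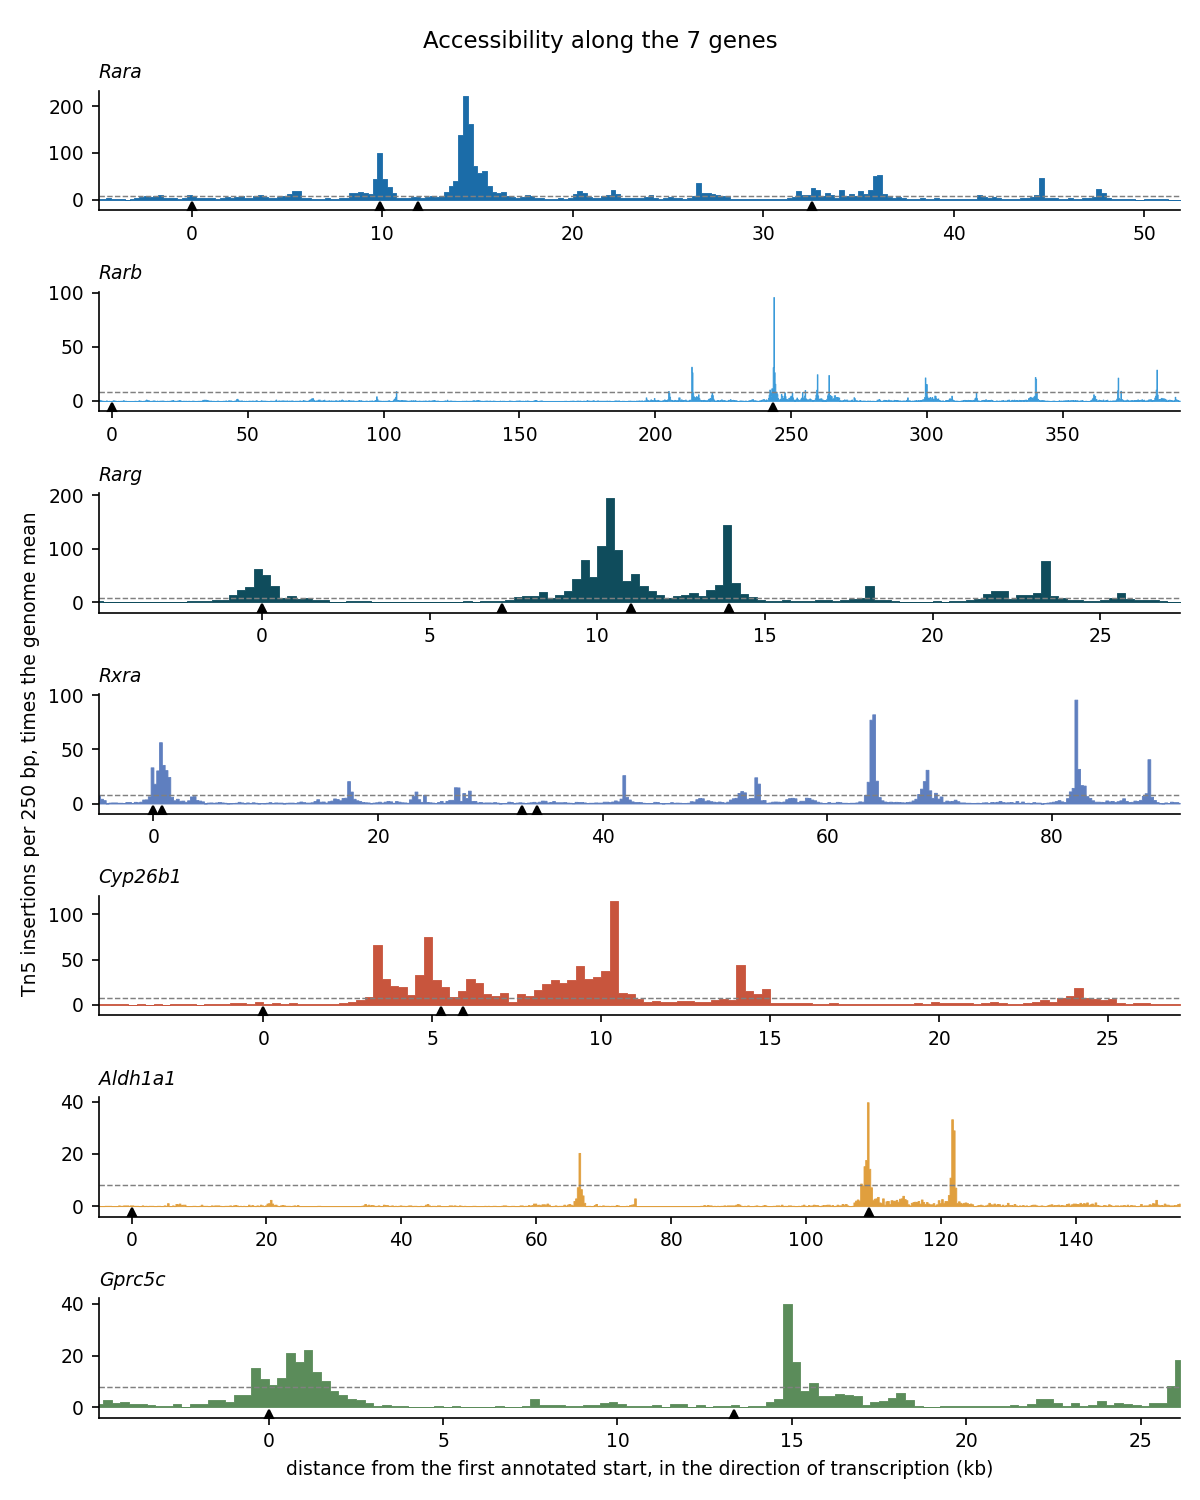
Tn5 insertions along each of the 7 genes, in fixed steps of 250 bp that can split a site and as a multiple of the genome mean, against distance from the first annotated start (kb), in 3629 cells. The dashed line marks 8 times the mean and triangles mark annotated starts. The strongest called site of Rxra (902 insertions) and Cyp26b1 (851) lies in an intron. That of Rara (1817) lies in an intron over the start of an antisense gene, and that of Rarb (686) at an internal promoter shared with an antisense gene.

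The sequence under these sites was searched on both strands for direct repeats of the half-site AGGTCA, the variant AGTTCA, the variant GGGTCA and the variant GGTTCA with a spacing of 1, 2 or 5 bases (DR1, DR2, DR5). The DR5 of Rarb, at chr14:16575513-16575529 on the minus strand, was covered by 684 insertions in 250 bp (634 to 737), or 96.7 times the genome mean. Of the 9284 DR5 repeats in the genome it ranked 3, and 2.17% of them reached 8 times the mean. The repeat lies 37 to 53 bases upstream of the RefSeq start of Rarb at 16575476, inside the first exon of a longer GENCODE transcript. At Rara, a DR5 at chr11:98960008-98960024 on the plus strand, 396 bp upstream of the start at 98960412, had 42 insertions (30.3 to 56.8), or 5.94 times the mean, and ranked 261. Both repeats are printed above, and neither rank is a sign of receptor binding.

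The other repeats near the members were hardly open. Of 28 repeats within 20 kb of the 7 genes (10 DR1, 11 DR2 and 7 DR5), 26 had under 3 times the genome mean. Among the DR5 repeats, the next after Rarb and Rara was in Rarg with 19 insertions (2.69 times), followed by the one near Cyp26b1 with 8 (1.13 times). Of the other kinds, a Rarb DR2 at chr14:16564470-16564483 also had 19, and a Rarg DR1 at chr15:102250828-102250840 had 18. None of the DR5 matches was at Rxra or Gprc5c. Among the 115 member sites, 1 held a DR5 (0.121% of all sites did), and 0 held a DR1 or DR2 (0.157% and 0.135%). Of 12 member promoters in the RefSeq table, which holds 300 bases around each start, 1 held a DR5 (0.0974% of 32851 promoters did) and 0 held a DR1 (0.222%) or DR2 (0.268%). A repeat of other letters or spacing would not be found by this search.

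Motifs of blood transcription factors were found at the members at shares near those of all sites, with lower shares for ETS and for the single half-site. The GATA letters AGATAA were in 12 of 115 member sites (10.4%, against 11.2% of all sites), the RUNX letters TGTGGT in 29 (25.2% against 25.2%), and the ETS letters AGGAAG in 39 (33.9% against 44.6%). The AP-1 letters TGANTCA were in 14 (12.2% against 11.7%), the E-box CAGCTG in 23 (18.9% of all sites), and the single half-site AGGTCA in 11 (9.57% against 15.7%). At promoters the shares in the genome were 11.2% for GATA, 16.8% for RUNX, 35.4% for ETS, 7.81% for AP-1, 16.3% for the E-box and 16.3% for the half-site. Of the 12 member promoters, these were in 2, 2, 4, 1, 2 and 3. The matches are counts of letters on either strand, and the DR5 half-sites can overlap the single half-site.

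**Figure D3:**
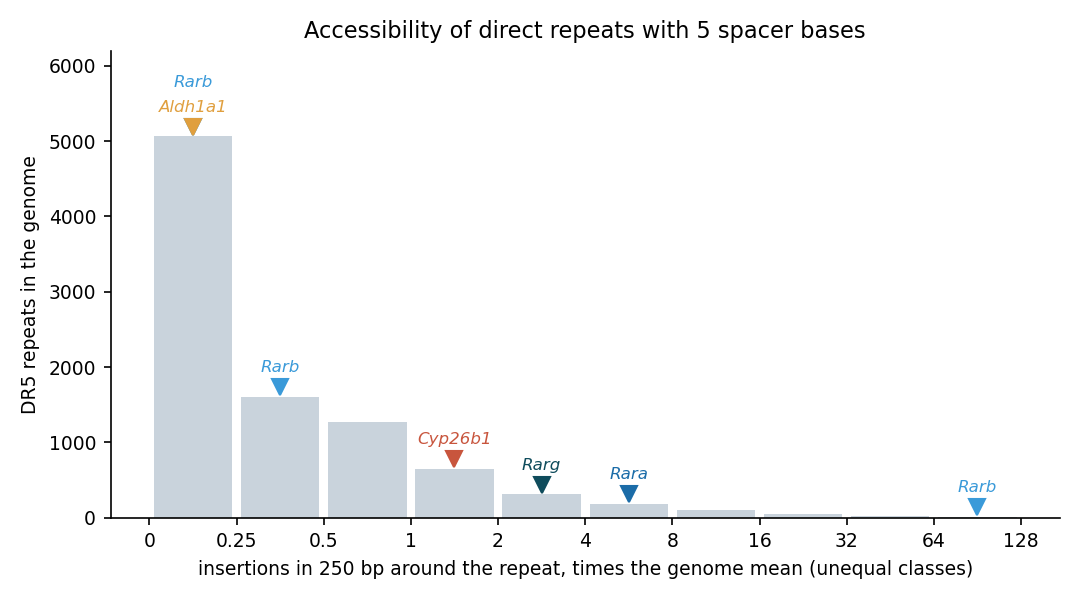
Number of DR5 repeats in the genome in classes of unequal width by insertions within 250 bp, as a multiple of the genome mean, with triangles at the classes of the 7 repeats near members. The Rarb repeat stands at 96.7 times the mean and the Rara repeat at 5.94 times, whereas 2.17% of 9284 repeats reach 8 times.

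The next comparison asked whether the members were more or less open in cells with more of a surface protein. The study separates platelet-biased from multi-lineage HSCs by CD61 (integrin beta 3), CD274 (PD-L1), CD357 (GITR) and CD27 (a receptor of the TNF receptor family), and cells were split at the tag count that put the share of high cells nearest to an even split. The cuts were 4 tags for CD61 (1695 high, 1934 low cells), 19 for CD274 (1860, 1769), 3 for CD357 (1818, 1811) and 1 for CD27 (2051, 1578). The median fragments per cell ranged from 10239.5 to 10316 in the 8 groups. Past 1.2-fold was taken as a difference worth naming. Of the 28 values from 7 genes and 4 antibodies, 0 were past 1.2-fold, and they ran from -0.10 to 0.14 on the log2 scale (0.936 to 1.10 times). Among 20515 genes with 200 or more fragments, 4.66% were past it for CD274, 3.14% for CD61, 3.37% for CD357 and 3.14% for CD27. Among the 12895 genes with 1000 or more fragments, as each member had, the shares were 0.527%, 0.178%, 0.233% and 0.186%.

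Small differences went with CD274. Levels here are fragments per 1000000 fragments of the same cells (CPM), not divided by length. Cyp26b1 had 102 CPM in CD274-high cells and 92.7 in CD274-low cells, a log2 ratio of 0.14 (0.05 to 0.24). Rarg had 152 against 143, a ratio of 0.09 (0.01 to 0.16), Rarb 144 against 136 or 0.08 (0.0041 to 0.16), and Rxra 143 against 135 or 0.08 (0.00043 to 0.16). Each of these ratios was under 1.2-fold. The ratio of Rara was 0.04 (-0.02 to 0.11), that of Aldh1a1 0.01 (-0.13 to 0.15) and that of Gprc5c -0.10 (-0.26 to 0.07), with 29.2 against 31.2 CPM. The middle 95% of genes with 1000 or more fragments ran from -0.17 to 0.17, so each member lay inside the spread of genes. In the 363 cells with at least 50 tags the ratio of Cyp26b1 turned to -0.23 (-0.51 to 0.05) and that of Rarg to -0.08 (-0.30 to 0.14).

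The CD274 tag made up 67.5% of the tags, and its count moved with the summed tags of a cell. With CD274 divided by the summed tags, the ratio of Cyp26b1 was 0.03, that of Rarb 0.02 and that of Rxra 0.01, whereas Rarg had 0.12. With cells split by the summed tags instead, a split chosen after seeing the data, Cyp26b1 had 0.08, Rarg 0.11, Rara 0.07 and Gprc5c -0.05. Between the highest and lowest of the 4 steps of CD274 described next (937 and 877 cells), Rarg had 0.22 (0.11 to 0.33) and Cyp26b1 0.15 (0.02 to 0.29). The spread of all genes in this smaller split is not given, so these values cannot be set against those of other genes. Whether the total number of tags or CD274 itself goes with openness of Cyp26b1 was not tested.

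For the other 3 antibodies the values were smaller or less sure. Gprc5c had a log2 ratio of 0.12 (-0.05 to 0.29) for CD61 and 0.12 (-0.05 to 0.29) for CD27, and 0.08 (-0.09 to 0.25) for CD357. Rara had 0.06 (-0.0033 to 0.12) for CD61 and -0.06 (-0.13 to -0.0010) for CD357. The values of Rarg, Rarb, Rxra, Cyp26b1 and Aldh1a1 lay between -0.05 and 0.08. Gprc5c, the marker of dormancy, thus had wide intervals in each split, and a change of 1.2-fold in it would lie near their edge.

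**Figure D4:**
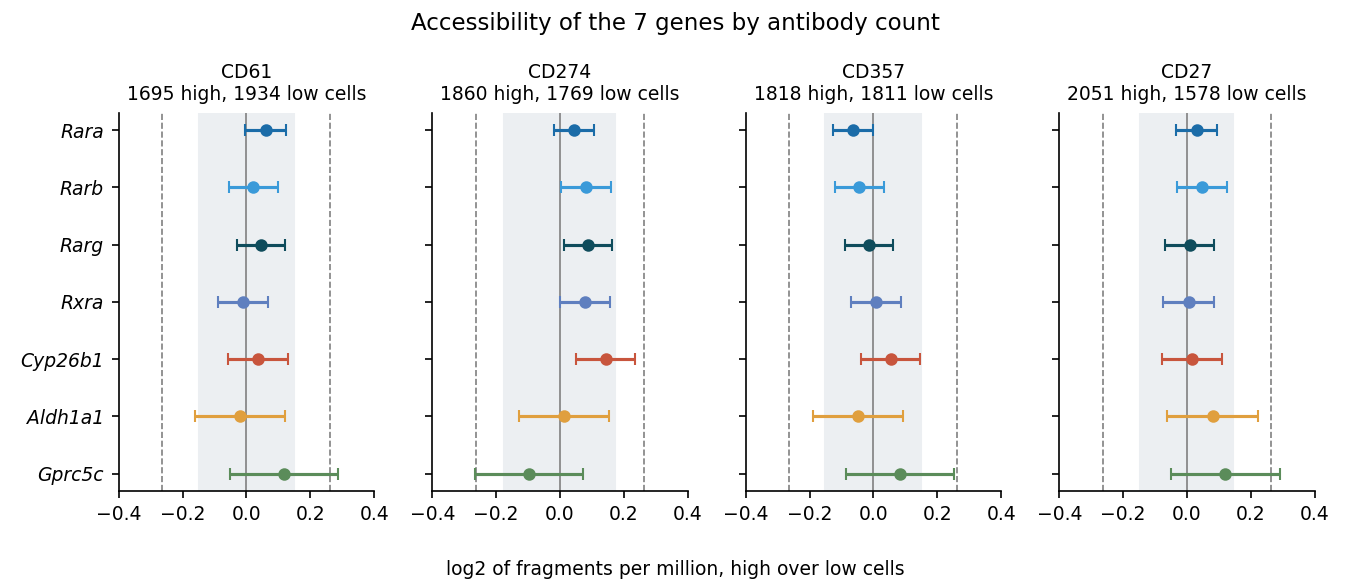
Log2 ratio of CPM between antibody-high and antibody-low cells for the 7 genes and CD61, CD274, CD357 and CD27, with 95% conditional binomial intervals, a shaded band for the middle 95% of genes with 1000 or more fragments, and dashed lines at 1.2-fold. The 28 points run from -0.10 to 0.14, inside the dashed lines.

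The same cells were also put in 4 steps of CD274 count (2 to 12, 13 to 18, 19 to 26 and 27 to 110 tags). Cyp26b1 had 91.3, 94.1, 103 and 102 CPM in the 4 steps, and the intervals of its lowest and of the 19 to 26 step met only at their edges, at 85.3 to 97.6 and 96.8 to 109.7. Rarg had 134 in the lowest step and 152, 148 and 156 in the others. Its interval in the lowest step (127.1 to 142.1) overlapped that of the 19 to 26 step (140.4 to 155.9). Rara showed the same form with 197 and then 214, 211 and 213. Rarb had 133, 139, 143 and 145, and Rxra 136, 134, 143 and 143. Aldh1a1 had 44.6, 40.8, 43.8 and 42.5, and Gprc5c 32.4, 29.98, 29.6 and 28.8, with intervals of neighbouring steps that overlapped.

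The steps of the other antibodies spanned similar ranges, with no order shared by the members. By CD61, Rara had 204, 205, 211 and 216 CPM in steps of 0 to 1, 2 to 3, 4 to 5 and 6 to 56 tags, and Cyp26b1 had 90.5, 100.1, 98.4 and 99.7. Rarb had 129.8, 145, 146 and 136 in the same steps, a wider range than by CD274. By CD357 (0 to 1, 2, 3 to 4 and 5 to 24 tags), Rara had 219.7, 202, 198 and 209.6, with the highest value in the lowest step, no steady order and a wider range than by CD274. By CD27 (0, 1 and 2 to 14 tags), Rara had 206, 205 and 219, and Gprc5c had 28.7, 31.0 and 31.4.

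**Figure D5:**
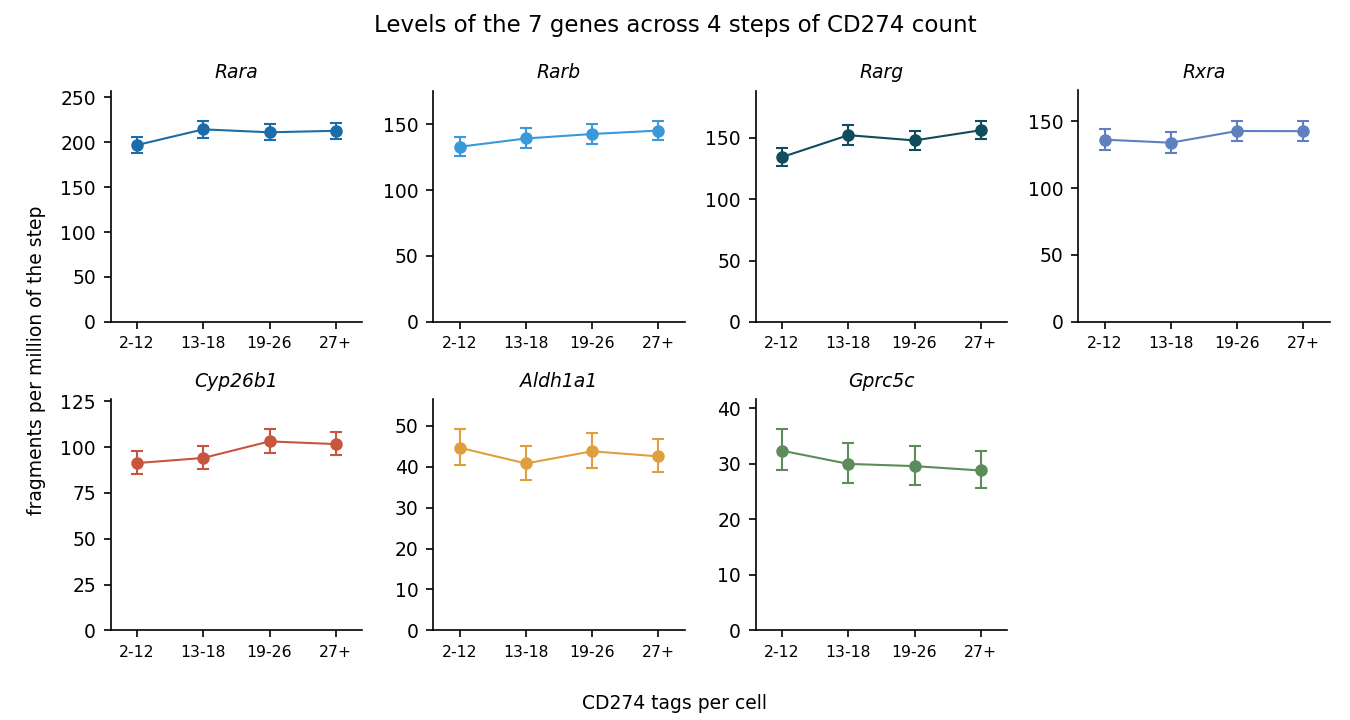
CPM of each of the 7 genes (fragments per 1000000 fragments) in 4 steps of CD274 tag count, with 95% Poisson intervals. Rarg and Rara are lowest in the lowest step (134 and 197), and Gprc5c runs from 32.4 to 28.8 with overlapping intervals.

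The other 8 antibodies gave 3 values past 1.2-fold, in groups of few cells. CD163, a macrophage receptor, was seen in 71 cells, where Rarb had a log2 ratio of 0.40 (0.14 to 0.64); in that split 39.9% of genes were past 1.2-fold. CD206, another macrophage receptor, was seen in 82 cells, where Aldh1a1 had 0.27 (-0.22 to 0.68) and Gprc5c 0.28 (-0.31 to 0.77); 36.6% of genes were past it. For CD201 (EPCR, an HSC surface protein), Rarg had 0.13 (0.05 to 0.21) and Cyp26b1 0.11 (0.01 to 0.21), with 4.03% of genes past 1.2-fold. For CD106, Cyp26b1 had -0.14 (-0.25 to -0.03), with 4.42% of genes past it. For P2X7R, Rarg had -0.10 (-0.18 to -0.02), with 3.33%. No member was past it for CD68 (14.4% of genes), CD183 (17.5%) or MERTK (3.3%).

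The 4 antibodies were also joined into gates after the in silico gating of the study. The PLT gate took cells with CD61 and CD274 high and CD357 and CD27 low (342 cells), and the MUL gate the opposite (61 cells). For the gates, a marker was high when its tag count exceeded the median of that marker, and low otherwise. These cuts differ from those of the splits above. The 1226 cells with 1 CD27 tag, high in the split, were thus low in the gates. Gprc5c had 29.9 against 23.3 CPM, or 106 and 14 fragments and a log2 ratio of 0.32 (-0.45 to 1.28), and was the 1 member past 1.2-fold. In that comparison 47.4% of genes were past it. Rarg had 0.15 (-0.17 to 0.51), Rarb -0.11, Rxra -0.08, Aldh1a1 0.07, Cyp26b1 0.06 and Rara 0.02. With cuts on centred log ratios (251 and 252 cells), 0 members were past 1.2-fold, where 30.4% of genes were, Gprc5c had 0.08 (-0.38 to 0.53), and Rarb had 0.22 (0.0050 to 0.43).

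At single open sites the differences were larger, and they did not all run one way. These sites hold fewer fragments than the genes they were assigned to. Sites of the whole genome also passed 1.2-fold more often than genes with 200 or more fragments, of which 4.66% did by CD274. Of 35 member sites with 200 or more fragments, 6 were past 1.2-fold by CD274 (17.1%, against 14.2% of all such sites), 4 higher and 2 lower in CD274-high cells. Some of the 35 lie in the neighbours Cdc6 and Itgb7. The intronic Rara site at 98943075 had 333 fragments in CD274-high and 228 in CD274-low cells, a ratio of 0.43 (0.19 to 0.68), and the Rxra promoter at 27677125 had 226 against 156, or 0.42 (0.12 to 0.73). The Cyp26b1 intron at 84579725 had 153 against 103, or 0.46 (0.09 to 0.83). Also past it were the Rara intron at 98943575 with 0.28 (-0.11 to 0.68) and a site downstream of Rara at 98982175 with -0.34 (-0.73 to 0.04). So was the Rxra site at 27745175 with -0.31 (-0.71 to 0.09). These intervals held 0, including those of both lower sites. The sites past the 3 strongest of each gene were named after their values were seen.

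By CD61, 3 sites were past 1.2-fold (8.57%, against 10.2% of all sites). These were the Rarb promoter with 0.30 (0.06 to 0.56), a site downstream of Rarg at 102234125 with 0.40 (0.11 to 0.70), and the strongest Rxra site with -0.28 (-0.51 to -0.06). By CD357, 2 Rara sites were (5.71% against 10.2%), at 98943575 with -0.47 (-0.87 to -0.08) and at 98963825 with -0.34 (-0.63 to -0.06). By CD27, 1 site was (2.86% against 9.47%), in Cyp26b1 at 84587625 with 0.28 (-0.12 to 0.70). The share of member sites past 1.2-fold was thus near that of all sites or under it.

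Other genes of the pathway were taken as lists, counted as genes with 200 or more fragments past 1.2-fold. Of 10 further receptors, corepressors and coactivators, 10 had 200 or more fragments and 0 were past 1.2-fold for the 4 antibodies, and 8 lay above the median gene. The promoter of the coactivator Ncoa2 had 2520 fragments and that of Rxrb 2251. Rxrb had a level of 8.35 FPKM and Rxrg, the other RXR gene, 0.460 (249 promoter fragments), so that Rxra stood between them. The median log2 ratio of this list by CD274 was -0.03, beside -0.00024 for all genes tested.

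Of 30 genes of retinoid synthesis, transport and breakdown, 26 could be tested and 19 lay above the median gene. By CD274, 5 of 26 were past 1.2-fold, beside 4.66% of all genes: Dhrs9 (0.27) and Bco2 (0.30) upward, and Rdh12 (-0.38), Stra6 (-0.27) and Cyp26c1 (-0.32) downward. By CD357 there were 2 of 26, Rdh12 (0.41) and Lrat (0.56), beside 3.37%. By CD27 there was 1, Rdh12 (0.34), and by CD61 1, the Cyp26 enzyme gene Cyp26a1 (-0.27), beside 3.14% in each split. Rdh12 and Lrat had 205 fragments each. The most open promoters were those of Dgat1 (2373), Adh5 (1841) and Rdh10 (972), which makes retinal. The list's median by CD274 was -0.03. The names past 1.2-fold in the lists were given after their values were seen.

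Of 17 genes known as retinoic acid targets, 17 could be tested and 14 lay above the median gene. By CD61, 2 of 17 were past 1.2-fold, Cebpe (-0.40) and Cyp26a1 (-0.27), beside 3.14% of all genes. By CD274 there was 1, Pdx1 (0.30), beside 4.66%, by CD357 1, Cebpe (-0.36), beside 3.37%, and by CD27 0. The most open promoters were those of the corepressor Nrip1 (1484), the HSC factor Meis1 (1032) and Dhrs3 (854). The median by CD274 was 0.01. Of 24 dormancy genes, 22 lay above the median gene, and 1, Sult1a1 (-0.30 by CD61, beside 3.14% of all genes), was past 1.2-fold. The most open were the immediate early genes Egr1 (4223), Nr4a1 (2593) and Nr4a2 (2526), and the list's median by CD274 was 0.03. Several of these genes are also HSC markers, and 5 genes stand in 2 of the retinoid lists. Of 15 activation genes, 15 lay above the median gene and 0 were past 1.2-fold, with Ncl (3379), Ccnd2 (3137) and Myc (2708) the most open, and medians of -0.06 by CD61, -0.05 by CD274, 0.05 by CD357 and -0.02 by CD27.

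The pattern of a member over the 12 antibody ratios was compared with that of the 12894 other genes with 1000 or more fragments. The genes most like Rara were Oma1 (Pearson r = 0.94) and Mblac2 (0.91), those most like Rarg were Ppp2r3d (0.93) and Aasdhppt (0.89), and those most like Rarb were 4833417C18Rik (0.96) and Gm11527 (0.95). The 12 points share the same cells and library, and those of CD163 and CD206 rest on few cells. The named genes are the highest of 12894 correlations over 12 points. How high the top of such a search would be by chance was not tested, so these names are a description only. Between pairs of the 7 members over 3629 cells, with depth taken out by ranks, the 21 correlations ran from -0.03 to 0.06. In counts as sparse as these they are a description and no finding.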

How the data were processed

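Data from 1 preparation of LT-HSCs were used as deposited. The authors processed the ATAC and RNA reads with Cell Ranger ARC 2.0.2 on the mm10 genome (the file header names the pipeline and the reference), which collapsed duplicate read pairs, shifted fragment ends for the transposase and called cells. For antibody tags the authors ran CITE-seq-Count (version not stated in the paper, labels or headers). Deposited values used were fragment counts, 1 line per fragment and barcode, tag counts per cell and counts per barcode. The RNA matrix was not analysed here, no column of per-sample values was left unmapped (0), and doublets were not called. Of 612099 barcodes, 3629 called cells with 10 or more summed tags were kept, holding 38554133 of 43705382 fragments (88.2%).

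Fragments were counted over GENCODE M21 genes plus 2 kb upstream, over promoters, and over open sites called in bins of 50 bp, with summits at least 500 bp apart. Protein-coding, long non-coding and immune receptor genes were counted, without pseudogenes. Promoter sequences came from the RefSeq GRCm38.p6 table, 250 bases before to 50 after each start, which has no entry for Gprc5c. Intervals were exact Poisson for counts, exact binomial for shares of cells and exact conditional binomial for ratios, with 0.5 added to each count in ratios, all at 95%. Ratios were scaled by all fragments of each group of cells. With 1 sample per group no test was run. The text names the 7 members, the 3 genes with the most promoter fragments in each list, RAR and RXR receptors, the 3 strongest sites of each member, and the 2 genes most like each of the 3 members with the most fragments, with further names marked where they occur. A gene that this rule would name is not reported here. The members, lists and tests were chosen with earlier results of these data known. Software was matplotlib 3.10.9, pandas 2.3.3, scipy 1.17.1 and numpy 2.4.6 under Python 3.11.15, and the scripts were tested on simulated data. The alternatives are in the closing section.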

Additional observations from a re-analysis of the deposited data

Results flagged for a closer look

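Fragments over the 7 genes were also seen in barcodes not called as cells, which no comparison above used. They numbered 1763, or 630 per 1000000 fragments of those barcodes, against 807 in the kept cells (31103 fragments) and 763 in called cells without antibody counts (980 fragments). The source of these fragments was not tested.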

How the results depend on the processing

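The 7 genes had 0 values past 1.2-fold over the 4 antibodies also with cells counted once per gene, the highest and lowest of 4 steps, tags divided by their sum, the summed-tags split, scaling by promoter fragments, the centred log ratio, 2 added to each count, the peak-region filter (which left the same 3629 cells), both fragment minimums and without the deepest 5% of cells. With at least 50 tags (363 cells) 5 values were past 1.2-fold, namely Cyp26b1 by CD61 (-0.26), Aldh1a1 by CD274 (-0.27), Rarg by CD357 (-0.30), Aldh1a1 by CD357 (0.28) and Gprc5c by CD357 (0.30). In those cells 13.1% to 14% of the 7720 genes with 200 or more fragments were past it in each split, and 5 of the 7 members, without Aldh1a1 and Gprc5c, reached 200. With promoters only 2 were, Rxra (0.26) and Aldh1a1 (0.30) by CD274, where 5.82% of genes were. The ratio of Cyp26b1 by CD274, 0.14, ran from -0.23 with at least 50 tags to 0.15 between the highest and lowest of 4 steps. Between the gates, 1 member was past 1.2-fold with raw cuts (47.4% of genes) and 0 with centred log ratios (30.4%). Over the lists, 14 of 368 values were past 1.2-fold (a gene in 2 lists counted in both), beside 3.14% to 4.66% of all genes by antibody. With genes of 1000 or more fragments 2 of 252 were, beside 0.178% to 0.527%, and past 1.5-fold 0 of 368, beside 0.0244% to 0.117%. Among the values of single members in the antibody splits, without the peak-region filter and the fragment minimums, which could not move them, 230 stayed within the counting interval of the reported value and 29 moved. Promoters above the median stayed at 15 with 250 and 1000 bp, and the 115 sites became 146 at 5 times and 91 at 12 times the mean. With 250 bp the most open start moved in Rarg and in Cyp26b1. No paired analysis was possible because the labels give no replicate numbers within a group and each assay is 1 library. The summed-tags split and the window from the most open start were added after seeing the data. Depth limits Gprc5c and Aldh1a1 most, with 1162 and 1655 fragments.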

Other observations

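RefSeq lists starts of 2 members that the GENCODE promoters above do not hold. At 98964872 on chromosome 11 a Rara start had 77 fragments (60.8 to 96.2), and at 17082331 on chromosome 14 a Rarb start far upstream of the annotated gene had 34 (23.5 to 47.5). Both were far under the most open promoter of the same gene, with 848 and 706 fragments, and the Rarb start had more fragments than the outermost GENCODE start with 3.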
